A study of Mus musculus with 2 samples.

Results

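The NF-kB module comprised 10 genes, chosen by name: the Rel family subunits Rela, Rel, Nfkb1, Relb and Nfkb2, the inhibitors Nfkbia, Nfkbib and Nfkbie, and the kinases Map3k14, which encodes NIK, and Chuk, which encodes IKK alpha. All 10 were found among the 25791 gene symbols of the tables. The RNA came from the thymic epithelium of fetuses aged 15 days post coitum, isolated by flow sorting of cells with the epithelial surface protein EpCAM and without the leukocyte antigen CD45 or the mesenchymal receptor PDGFRa. The library titled B6J came from C57BL/6 mice. The library titled humanCD3eTg came from mice of C57BL/6J x CBA/J background and, by its title, carries a human CD3e transgene, so that transgene and strain background differ together. There was 1 library per group, with no replicates, so that no test was possible and no spread between mice is known.

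The series compared thymic epithelium with and without developing thymocytes. The treatment labels give absence of thymocytes for B6J and presence for humanCD3eTg, although mice with many copies of human CD3E are generally known to lack T cells. Of 20 thymocyte genes, summed levels were 179.6 FPKM (fragments per gene, divided by transcript length and by library size) in the library labelled as lacking thymocytes and 11.7 FPKM in the other. The libraries are therefore called by their titles throughout, and each ratio is humanCD3eTg over B6J. The sorted cells expressed the labelled lineage in both libraries: all 14 thymic epithelial genes examined exceeded 1 FPKM in each, with Epcam at 173.5 and 231.4 FPKM. An estimated 19900000 fragments lay behind the B6J table and 15800000 behind the humanCD3eTg table.

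NF-kB proteins are dimeric transcription factors held inactive until a receptor signals. In the canonical arm, a kinase complex marks the inhibitor proteins of the IkB family for destruction and frees dimers such as RelA with p50, the product of Nfkb1. In the non-canonical arm, receptors of the TNF family such as LTbetaR, RANK and CD40 let the kinase NIK accumulate, NIK activates IKK alpha, and the Nfkb2 product p100 is processed to p52, which pairs with RelB. RelB and NIK are known to be required for a normal thymic medulla, whose epithelial cells receive these signals from lymphoid cells. Activity of either arm is set at the level of proteins, which RNA does not measure.

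The non-canonical subunits stood lower in humanCD3eTg, while Rela, the main canonical subunit, stood at nearly equal levels. Relb, the transcriptional partner of p52, measured 60.8 FPKM in B6J and 32.0 FPKM in humanCD3eTg, an FPKM ratio of 0.526 (95% counting interval 0.488 to 0.566). Nfkb2, which encodes p100, measured 93.3 and 56.3 FPKM, a ratio of 0.603 (0.578 to 0.629). Rela, which encodes the transactivating partner of p50, measured 54.7 and 55.04 FPKM, a ratio of 1.01 (0.951 to 1.07). The intervals are Clopper-Pearson limits on the estimated fragments of each gene and cover counting error only, not variation between mice or sorts. In RNA of sorted cell pools, fewer cells that express a gene and less RNA per cell cannot be told apart.

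**Figure D1:**
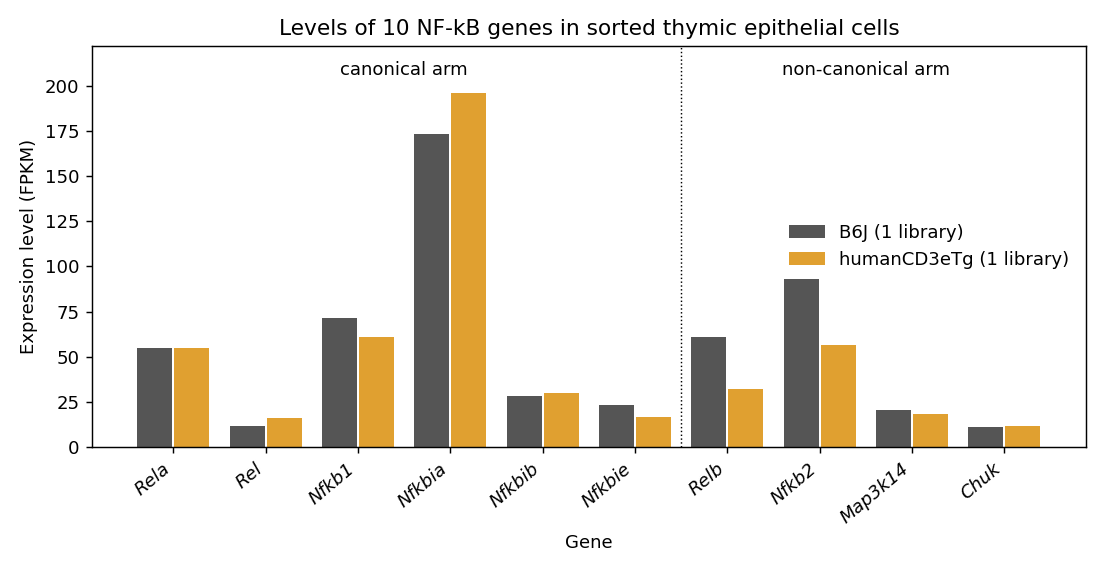
Bars give the level of each of the 10 genes (FPKM, linear axis from 0) in the B6J and humanCD3eTg libraries, with 1 library per group and hence no error bars. Relb (60.8 and 32.0 FPKM) and Nfkb2 (93.3 and 56.3 FPKM) show the widest relative gaps, and Nfkbia is the highest gene in both libraries.

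No member differed by 2-fold on the scale of log2(FPKM + 1), on which all later log2 ratios are given. Of all genes, 13493 averaged 1 FPKM or more over the libraries and were used. On that scale 6.57% of them stood apart by 2-fold or more, 4.47% lower and 2.10% higher. All 10 members exceeded 1 FPKM in both libraries, so none entered through 1 library alone. At a limit of 1.5-fold, Relb and Nfkb2 were lower and no member was higher, beside 10.9% of all genes lower and 5.95% higher. The log2 ratio of Relb was -0.91, and 5.21% of the genes used had a lower one. That of Nfkb2 was -0.72, with 7.69% of genes below it. Both therefore lay in the lower tail of all genes but were not among its extremes.

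**Figure D2:**
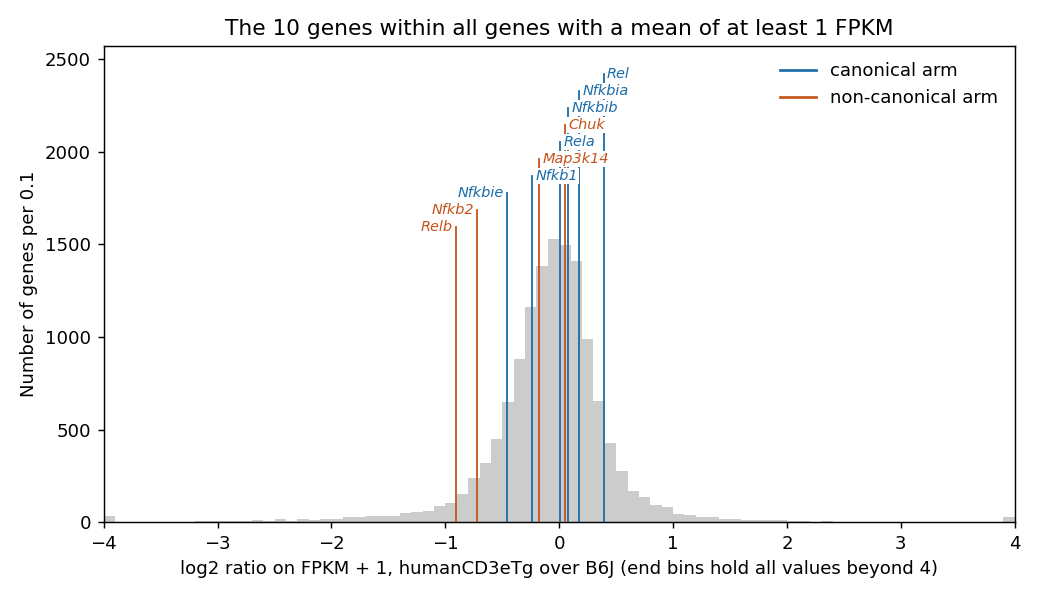
Grey bars count genes per 0.1 of log2 ratio on FPKM + 1 for the 13493 genes used, and coloured lines mark the canonical (blue) and non-canonical (orange) members. Relb at -0.91 and Nfkb2 at -0.72 lie in the left tail, while the other 8 members lie between -0.46 and 0.39.

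The other canonical subunits differed by less and in opposite directions. Nfkb1, the precursor of p50, measured 71.6 FPKM in B6J and 60.7 FPKM in humanCD3eTg, with a log2 ratio of -0.24. Rel, which encodes c-Rel, a subunit best known from lymphocytes, measured 11.8 and 15.8 FPKM, with a log2 ratio of 0.39 and an FPKM ratio of 1.34 (counting interval 1.25 to 1.43). Rel was the member with the highest ratio and the least abundant of the 5 subunits in both libraries. Which cells gave the difference of Rel was not tested.

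The balance of subunit transcripts thus differed between the libraries. FPKM is scaled by length, so levels of different genes in 1 library can be set side by side, but only roughly. In B6J, Relb stood at 1.11 times the level of Rela and Nfkb2 at 1.30 times that of Nfkb1. In humanCD3eTg these level ratios were 0.581 and 0.927, so that in each pair the non-canonical subunit was the higher one in B6J and the lower one in humanCD3eTg. This exchange of order is uncertain, since 1.11 and 0.927 lie near 1 and each comes from 1 library. Relb and Nfkb2 together made up 52.7% of the summed FPKM of the 5 subunits in B6J (292.1 FPKM in all) and 40.1% in humanCD3eTg (219.8 FPKM). The sum for Rela, Rel and Nfkb1 was 138.1 and 131.5 FPKM, and that for Relb and Nfkb2 was 154.0 and 88.2 FPKM. Between the members of the RelB and p100 pair the level ratio was similar in both libraries, with Nfkb2 at 1.53 times Relb in B6J and 1.76 times in humanCD3eTg.

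The 3 inhibitor genes did not share a direction. Nfkbia, which encodes IkB alpha and is a classic feedback target of canonical NF-kB, was the most abundant member in both libraries, at 173.2 and 196.0 FPKM (log2 ratio 0.18). It stood at 3.17 times the level of Rela in B6J and at 3.56 times in humanCD3eTg. Nfkbib, which encodes IkB beta, measured 28.3 and 29.995 FPKM (0.08), and the counting interval of its FPKM ratio, 0.968 to 1.16, included 1. Nfkbie, which encodes IkB epsilon, measured 23.5 and 16.8 FPKM (-0.46), with a counting interval of the FPKM ratio from 0.647 to 0.794. Nfkbie was the lowest-ratio member of the canonical arm, and its level relative to Nfkbib was 0.829 in B6J and 0.561 in humanCD3eTg.

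The kinases of the non-canonical arm differed little. Map3k14, the gene for NIK, measured 20.7 and 18.1 FPKM (log2 ratio -0.18), and 35.9% of genes had a lower ratio. Chuk, whose product IKK alpha acts in both arms, measured 11.3 and 11.7 FPKM (0.05), with a counting interval of the FPKM ratio from 0.931 to 1.16. Within the non-canonical arm the transcription factor genes thus had lower ratios than the kinase genes. NIK is controlled mainly through destruction of the protein, so its transcript does not give its amount.

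As arms, the 6 canonical genes had a median log2 ratio of 0.04, with 2 lower and 4 higher, and the 4 non-canonical genes had a median of -0.45, with 3 lower and 1 higher. The median of all genes used was -0.05, with 55.4% of them lower. Without Chuk the non-canonical median was -0.72 over 3 genes. Over the subunits alone it was -0.81, against 0.01 for Rela, Rel and Nfkb1. The arms overlapped, since Nfkbie and Nfkb1 of the canonical arm had lower ratios than Map3k14 and Chuk.

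**Figure D3:**
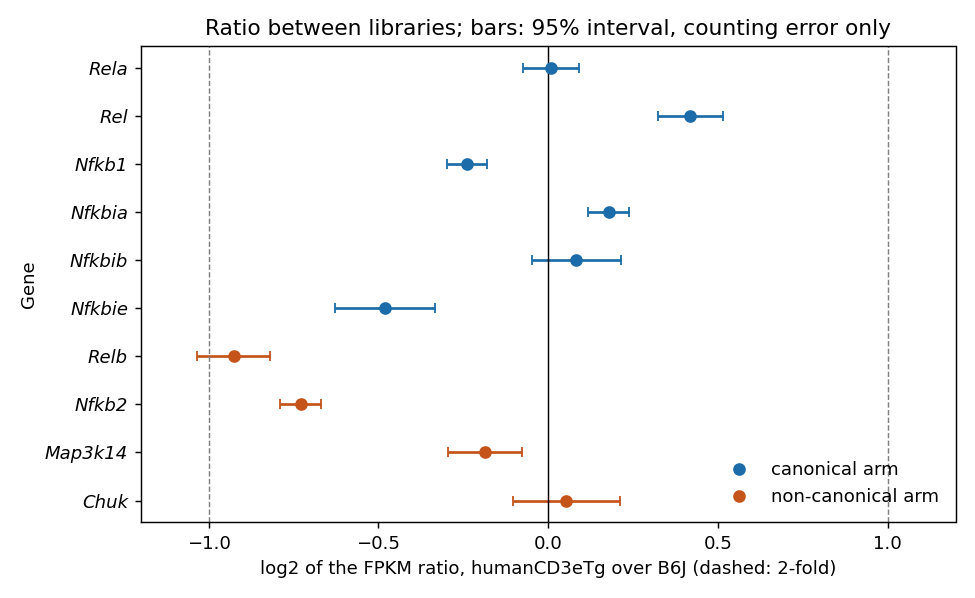
Points give the log2 of the FPKM ratio of each member, and bars its 95% interval from estimated fragments, for counting error only. The bars of Relb and Nfkb2 lie apart from those of the other 8 members, and those of Rela, Nfkbib and Chuk include 0.

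The order of levels was similar in both libraries. In B6J it ran from Nfkbia through Nfkb2, Nfkb1, Relb, Rela, Nfkbib, Nfkbie, Map3k14 and Rel to Chuk. In humanCD3eTg, Nfkb1 and Rela stood above and below Nfkb2 at 60.7, 55.04 and 56.3 FPKM, and Relb came after Rela. Map3k14 and Nfkbie, at 18.1 and 16.8 FPKM, also exchanged places. Without replicates it is not known which neighbours in this order differ beyond the spread between mice. Against all genes used, Relb lay above 88.7% of levels in B6J and above 80.1% in humanCD3eTg, and Nfkb2 above 92.2% and 88.0%.

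Promoter sequences are shown because Nfkb2, Nfkbia and other NF-kB genes are known as targets of NF-kB itself. RefSeq windows (build GRCm38.p6) from 250 bases before to 50 bases after an annotated transcript start were matched for 8 of the 10 members, not for Relb and Nfkb1. They were searched on both strands for the kB consensus, a motif of 10 bases, and for the GC box GGGCGG, and overlapping matches were merged to 1 place. Of the 8 members, 4 held the kB consensus (Nfkb2, Nfkbia, Nfkbie and Rel), and it was present for 5.14% of all 27025 genes of the table (4.51% of its 32851 windows). The bases that hold the matches before the first annotated start are given 5′ to 3′ on the strand of the gene, with the matches in capitals. Places near the other annotated starts of Nfkb2 are not printed. They lie at chr19:46304678-46304736 (plus strand) for Nfkb2, chr12:55492648-55492696 (minus) for Nfkbia, chr17:45555574-45555623 (plus) for Nfkbie and chr11:23771031-23771081 (minus) for Rel.
Nfkb2: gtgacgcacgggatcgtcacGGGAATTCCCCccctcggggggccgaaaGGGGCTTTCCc
Nfkbia: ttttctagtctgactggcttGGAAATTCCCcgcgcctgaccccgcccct
Nfkbie: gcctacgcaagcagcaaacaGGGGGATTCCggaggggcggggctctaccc
Rel: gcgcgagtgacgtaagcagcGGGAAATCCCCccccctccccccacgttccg

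Nfkb2 had matches at -39 and at -11 from its first annotated start, and 0.167% of all windows held the motif at 2 or more separate places. Its 3 annotated starts together had 4 separate places. Nfkbia had 1 match, on the opposite strand, from -29 to -20, Nfkbie had 1 at -106 and Rel had 1 at -92. The windows of Rela, Nfkbib, Map3k14 and Chuk held none. The GC box was found in windows of 7 of the 8 members, all except Nfkbib, and for 38.2% of all genes (35.7% of windows). The 4 genes with a kB match had log2 ratios of -0.72, 0.18, -0.46 and 0.39 in the order printed, so that they stood lower and higher alike. A match describes letters in this window and is not evidence of binding in these cells.

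**Figure D4:**
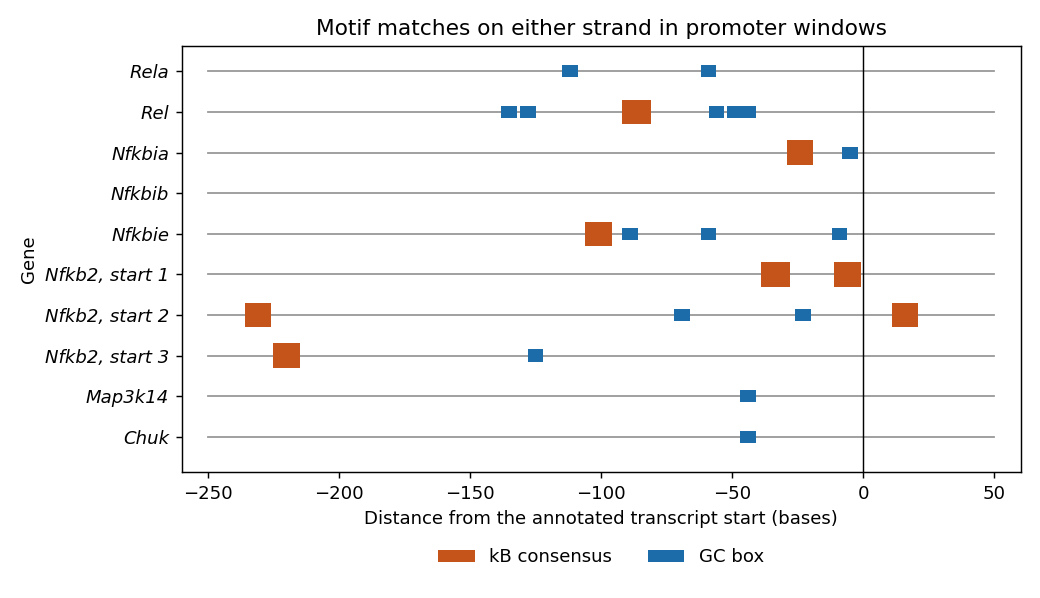
Each line is a promoter window, with distance in bases from the annotated start on the horizontal axis, and boxes mark kB (orange, tall) and GC box (blue, low) matches on either strand. Nfkb2 is the member with kB matches at more than 1 place, and the windows of Rela, Nfkbib, Map3k14 and Chuk hold no kB match.

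The receptors that feed the non-canonical arm were mostly lower, by unequal amounts. Ltbr, the lymphotoxin beta receptor, measured 67.2 and 49.1 FPKM (log2 ratio -0.45). Cd40 measured 20.1 and 2.40 FPKM (-2.63), and Tnfrsf11a, the gene for RANK, 1.54 and 0.244 FPKM. In the opposite direction, Tnfrsf12a, the receptor of the cytokine TWEAK, measured 155.1 and 270.5 FPKM (0.80). Tnfrsf1b, a TNF receptor, measured 2.07 and 1.21 FPKM. Of the 4 genes of this list of 6 that reached a mean of 1 FPKM, 3 were lower, Cd40 among them by over 2-fold. The median was -0.46. Of all genes used, 55.4% were lower and 4.47% were lower by 2-fold or more.

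Ligands that feed either arm were mostly scarce in both libraries. Ltb, which encodes lymphotoxin beta, measured 5.27 and 0.708 FPKM, and Tnfsf11, which encodes RANKL, 3.0 and 0.404 FPKM. Tnfsf12, which encodes TWEAK, measured 2.98 and 1.36 FPKM. Il33, an alarmin that signals through the canonical arm, stood higher, at 2.87 and 10.3 FPKM. Only these 4 of 13 ligand genes averaged 1 FPKM or more, and 2 of them reached 1 FPKM in both libraries. With no filter the ligand median was -0.16 over 13 genes.

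Receptors of the canonical arm were lower in 4 of 5 genes used of 10, beside 55.4% of all genes. Their median was -0.57, or -0.18 over all 10 with no filter, and 4 of the 5 reached 1 FPKM in both libraries. Tnfrsf1a, the main TNF receptor, measured 59.9 and 39.99 FPKM, and Il1r1, the interleukin 1 receptor, 13.9 and 7.48 FPKM. Edar, the ectodysplasin receptor of skin appendages, measured 3.13 and 0.835 FPKM. Ngfr, which neural crest cells also express, measured 8.62 and 10.5 FPKM. The summed level of the canonical receptors was 89.0 FPKM in B6J and 62.1 FPKM in humanCD3eTg, while that of the non-canonical receptors was higher in humanCD3eTg, at 246.8 and 323.6 FPKM, most of it Tnfrsf12a.

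Most kinases of the canonical arm differed little. Ikbkb, the gene for IKK beta, measured 13.6 and 11.9 FPKM (log2 ratio -0.17), and Ikbkg, the gene for the scaffold NEMO, 4.12 and 3.34 FPKM (-0.24). Map3k7, the gene for the upstream kinase TAK1, measured 14.6 and 18.3 FPKM (0.30). Map3k8, a kinase bound by p105, measured 9.43 and 4.24 FPKM (-0.99), and Ikbke 2.31 and 1.43 FPKM. On FPKM + 1 none of these 12 genes passed 2-fold, although Map3k8 did so in FPKM itself. Of the 12, 8 were lower, beside 55.4% of all genes, and the median was -0.09, near that of all genes.

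Of 9 genes for TRAF adaptors, cIAP ubiquitin ligases and Otud7b, some of which hold NIK at low levels, 8 were lower. The median was -0.49, and 55.4% of all genes used were lower. Traf3 and Traf2, which recruit NIK for destruction, measured 13.4 and 10.01 FPKM and 9.15 and 6.21 FPKM. Birc2 and Birc3, the genes for the cIAP ubiquitin ligases, measured 32.3 and 21.5 FPKM and 36.7 and 17.3 FPKM. On FPKM + 1 Birc3, itself a known NF-kB target, was the only 1 of the 9 past 2-fold (-1.04). Traf1, also a known target, measured 2.90 and 1.04 FPKM (-0.93), which is past 2-fold in FPKM itself, and Traf4 29.0 and 19.96 FPKM.

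Feedback regulators and atypical IkB genes were mostly lower, some by about as much as Relb and Nfkb2. Tnfaip3, the gene for the deubiquitinase A20, measured 31.2 and 26.8 FPKM (-0.21), and Cyld, another deubiquitinase, 6.30 and 6.12 FPKM (-0.03). The genes Bcl3, Nfkbid and Nfkbiz encode atypical nuclear proteins related to IkB, which do not only inhibit. They measured 44.1 and 30.7 FPKM (-0.51), 23.8 and 15.1 FPKM (-0.62), and 24.3 and 21.5 FPKM (-0.17). Tnip1, an A20 partner, measured 30.1 and 15.9 FPKM (-0.88), Pdlim2 16.3 and 9.44 FPKM (-0.73), and Usp18, which interferon also induces, 4.57 and 2.5 FPKM (-0.67). Of 17 genes used of 18, 14 were lower, beside 55.4% of all genes. None differed by 2-fold on FPKM + 1, and the median was -0.27.

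Most genes known as targets of either arm stood lower. Of all genes used, 55.4% were lower and 4.47% were lower by 2-fold or more. Among targets known mainly from the canonical arm, 15 of 19 used were lower, by 2-fold or more in 4 cases (median -0.40). Of these 19, 17 reached 1 FPKM in both libraries. The adhesion gene Vcam1 measured 79.9 and 18.9 FPKM (-2.02), and the chemokine genes Cxcl10 and Cxcl1 449.7 and 179.8 FPKM (-1.32) and 32.9 and 14.5 FPKM (-1.12). Bcl2a1a, a survival gene of leukocytes with near-identical copies and therefore uncertain, measured 2.48 and 0.0710 FPKM. Among targets of the non-canonical arm and medullary genes, all 10 used of 14 were lower, by 2-fold or more in 7 cases. Only 4 of the 10 reached 1 FPKM in both libraries. Of these 4, Ccl21a alone, at 84.3 and 33.5 FPKM, was at least 2-fold lower. The rest of the 10 averaged 1 FPKM only through B6J, which fixes their direction. Aire, the regulator of tissue-restricted antigens, measured 7.53 and 0.0366 FPKM, and Madcam1, an adhesion gene, 8.30 and 0.363 FPKM. Ccl19 and Cd80 measured 5.62 and 2.30 FPKM in B6J and were listed at 0 in humanCD3eTg. The median of this list was -1.57, or -1.05 with no filter, and Foxn1, the regulator of thymic epithelial identity, measured 91.1 and 43.7 FPKM.

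**Figure D5:**
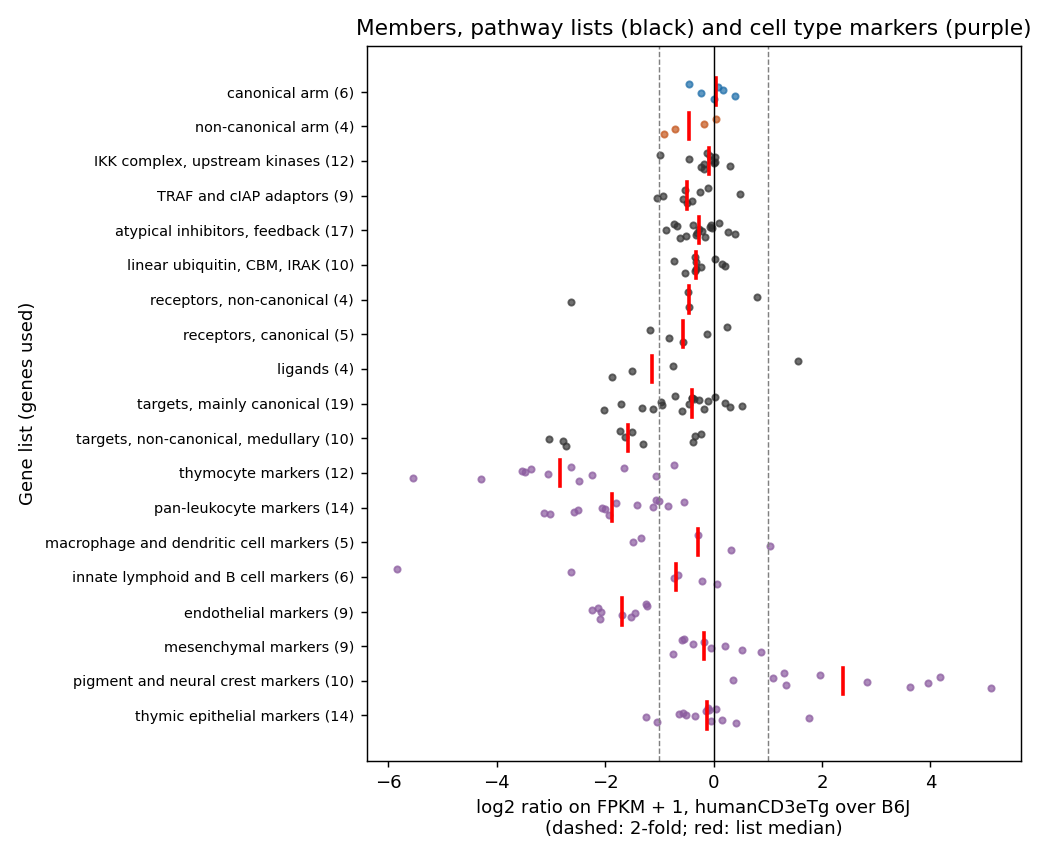
Points are genes, with the log2 ratio on FPKM + 1 on the horizontal axis, grouped by list with the number of genes used in brackets, and red bars are list medians. The canonical arm centres at 0.04 and the non-canonical arm at -0.45, beside thymocyte markers at -2.84 and pigment and neural crest markers at 2.39.

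Markers of thymocytes, other leukocytes and endothelium were lower in the same library as Relb and Nfkb2, while those of pigment and neural crest cells were higher. In each of these lists some genes passed the mean of 1 FPKM only through the library where they were high, which fixes their direction: 6 of 14 pan-leukocyte, 6 of 12 thymocyte, 4 of 9 endothelial and 6 of 10 pigment and neural crest genes used reached 1 FPKM in both libraries. With no filter the medians were -1.61, -1.36, -1.48 and 1.97 in the same order. Of 16 pan-leukocyte genes, 14 were used and all 14 were lower, by 2-fold or more in 12 cases, beside 4.47% of all genes. Their summed level was 228.2 FPKM in B6J and 82.3 FPKM in humanCD3eTg, or 110.8 and 17.4 FPKM without Arhgdib, the highest of them. Single genes ran from 0.708 to 117.4 FPKM and from 0.0971 to 64.9 FPKM, and Ptprc, the gene for CD45, measured 4.18 and 0.358 FPKM. Among 20 thymocyte genes, 12 were used and all 12 were lower, 11 at least 2-fold, with Cd3e at 10.6 and 1.08 FPKM and 7 genes listed at 0 in humanCD3eTg against 2 in B6J. All 9 endothelial genes used of 12 were at least 2-fold lower, with a summed level of 56.8 and 10.1 FPKM and Pecam1 at 8.01 and 1.10 FPKM. Genes of macrophages and dendritic cells, of which 5 of 14 were used, had a median of -0.29 with 3 lower and 2 higher, beside 55.4% of all genes lower. Of these 5 genes, 2 reached 1 FPKM in both libraries. The 14 genes summed to 29.3 and 21.2 FPKM. Of 13 innate lymphoid and B cell genes, 6 were used and 5 were lower, and 4 of the 6 reached 1 FPKM in both libraries. The median was -0.69, or -0.22 over all 13 with no filter, and the 13 genes summed to 129.7 and 66.1 FPKM. Without Id2, a factor that many cell types express, that sum was 73.9 and 7.38 FPKM, and most of the B6J value was Gzma alone, at 56.6 FPKM. Gzma and Nkg7, the latter at 5.17 FPKM in B6J, were among 4 genes listed at 0 in humanCD3eTg against none in B6J. Pigment and neural crest genes were higher in all 10 used of 11, with a summed level of 12.2 and 173.8 FPKM. Relb and Nfkb2 are also expressed by leukocytes, and the part of these cells in the differences of the members was not tested. The difference of Relb between the libraries was -28.8 FPKM and that of Nfkb2 -37.0 FPKM.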

How the data were processed

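The authors deposited 1 table of FPKM values per library, from total RNA prepared with a TruSeq kit, per the labels' protocols. The build mm9 and the tools TopHat2 2.0.8, Bowtie2 2.1.0 and Cufflinks 2.1.1 are listed per the submitters' processing notes, with no role or order. The annotation, filters and use of strand are not given in the sources used, and reads of overlapping or antisense genes may be mixed. Members, arms and lists were chosen with earlier results of these data known. The 9 pathway and 8 marker lists held 229 entries, of which 7 were matched through RefSeq synonyms.

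Log2 ratios used FPKM + 1, which understates differences of low genes, over genes that averaged 1 FPKM or more. An FPKM of at most 0.001 counted as listed at 0. Computation used Python 3.11.15, pandas 2.3.3 and scipy 1.17.1 and was tested on simulated data.

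Depth was estimated from the steps that single fragments leave in low values. Among 2115 genes between 0.005 and 0.5 FPKM in both libraries, the most frequent ratio of the libraries was 1.26, shared by 103 genes. With that ratio, and GENCODE transcript lengths less 210 bases, the step of 1 fragment for 1 kb was 0.0502 FPKM (B6J) and 0.0633 FPKM (humanCD3eTg). Of low values of 491 and 400 genes with 1 annotated transcript, 55.6% and 56.5% came within 0.1 of a whole fragment. Since the step was searched between 0.02 and 0.1 FPKM for this share, depth is known only roughly and counts were not tested. Fragments per member used its longest coding transcript, and their intervals are approximate.

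Text names the 10 members, up to 4 genes of largest absolute ratio per pathway list and 20 genes chosen by name. Arhgdib, Id2, Gzma, Nkg7, Krt5, Krt14, Ccl21a and Bcl10 were named after their values were seen. Protein sequences were not analysed here. Alternatives were 2 other pseudocounts, 4 other scalings, other filters, other fold limits and other make-ups of the arms.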

Additional observations from a re-analysis of the deposited data

How the results depend on the processing

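Over 7 scalings and pseudocounts, including the one reported, Relb lay between -0.96 and -0.83, Nfkb2 between -0.77 and -0.67, Nfkbie between -0.51 and -0.38 and Rel between 0.31 and 0.47. Rela was below 0 in 2 of the 7 and has no direction. The non-canonical median ran from -0.81 to -0.40 over its 11 settings and the canonical one from 0.00 to 0.09 over 10. The median of all genes shifted to 0.02 with quantile normalization and to -0.09 with TPM.

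Members past the limit numbered 0 at 2-fold and 2 lower at 1.5-fold. Of the 89 distinct pathway genes used, 15 (16.9%) were at least 2-fold lower, beside 4.47% of all genes used. Most of the 15, Aire, Ltb and Madcam1 among them, averaged 1 FPKM only through B6J, which fixes their direction. Those that reached 1 FPKM in both libraries were Birc3, Cd40, Vcam1, Cxcl1, Cxcl10 and Ccl21a. The number lower was 7 with a pseudocount of 5 and 6 above a mean of 5 FPKM, 28 at 1.5-fold and 5 at 4-fold. The number higher was 1, or 0 with a pseudocount of 5 and at 4-fold, and 2 at 1.5-fold. For all genes, 603 lower and 284 higher became 223 and 106 with a pseudocount of 5, 272 and 143 above a mean of 5 FPKM, 1471 and 803 at 1.5-fold, and 171 and 66 at 4-fold. A pseudocount of 0.1 gave 903 lower and 473 higher. The ligand median turned from -1.13 over 4 genes to 1.55 above a mean of 5 FPKM, where 1 gene was left. The median of non-canonical targets and medullary genes was -3.40 with a pseudocount of 0.1 and -0.39 over 3 genes above a mean of 5 FPKM. No paired analysis was possible because there was 1 library per group.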

Other observations

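Adaptors that carry signals to the kinase complex were mostly lower. A list of 12 genes covered linear ubiquitin, antigen receptor adaptors, and adaptors or kinases of Toll-like, interleukin 1 and TNF receptors. Of these, 10 were used, 7 lower and 3 higher, beside 55.4% of all genes lower. None differed by 2-fold on FPKM + 1, beside 6.57% of all genes, and the median log2 ratio was -0.32. Bcl10, the most abundant of the list, stood higher in humanCD3eTg, at 79.9 and 93.0 FPKM. Myd88, the adaptor of Toll-like and interleukin 1 receptors, measured 19.8 and 11.6 FPKM (-0.72, as Nfkb2), and Rnf31, the catalytic subunit of the linear ubiquitin ligase, 10.4 and 6.91 FPKM. Rbck1, a partner of Rnf31, measured 46.7 and 36.6 FPKM, and Irak4, a kinase of the same receptors, 1.58 and 1.03 FPKM. Over all pathway lists together, 79.8% of the 89 genes used were lower, beside 55.4% of all genes. Some of the 89, such as Aire and Ltb, averaged 1 FPKM only through B6J, which fixes their direction. Of the mesenchymal markers 6 of 9 used were lower, beside 55.4% of all genes, and none by 2-fold, with a median of -0.18. Their summed level was higher in humanCD3eTg, at 231.4 FPKM in B6J and 264.7 FPKM in humanCD3eTg over 10 genes. The thymic epithelial markers had a median of -0.12 over 14 genes, which went both ways. On FPKM + 1 Krt14 (22.9 and 9.05 FPKM) and Foxn1 were at least 2-fold lower and Krt5 (280.2 and 955.5 FPKM) at least 2-fold higher.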
